A study of Mus musculus with 6 samples.

Results

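The genes described here are the enzymes of glycolysis, the transporters that carry glucose and lactate across the cell membrane, the kinases that steer both ends of the pathway, and the hypoxia-inducible factor (HIF) system that senses oxygen. They were chosen by symbol, as 40 named genes of the 22298 in the deposited table, and measured in liver sinusoidal endothelial cells, the fenestrated endothelium of the hepatic sinusoids. The study compared wild-type mice at different ages by poly(A)-selected RNA sequencing in 6 libraries, 3 titled as controls (1, 2 and 3) and 3 titled aging (2, 3 and 5). The age field gives 24 months for the control libraries and 8 weeks for those titled aging, which contradicts the titles. Directions below are therefore those of the libraries labelled aging against the libraries labelled control, and neither group is given an age. Strain, sex, isolation method and number of mice are not in the labels, and nothing in them says that the libraries came from separate mice. Every p-value below therefore reflects library-to-library spread, which may be technical. Of the 40 genes, 39 had enough counts to be tested among 13096 genes. Eno2, the neuronal enolase, had 5 counts over the 6 libraries and was not tested. A second table row under the symbol Aldoa held 0 to 3 counts per library and was left out.

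Glycolysis splits glucose to pyruvate in the cytosol. Pyruvate then enters the mitochondrion or is reduced to lactate, which leaves the cell through monocarboxylate carriers. Endothelial cells are known to make much of their ATP this way even when oxygen is plentiful. HIF is a pair of an oxygen-sensitive alpha subunit, HIF-1 alpha or HIF-2 alpha, and the stable subunit ARNT. With oxygen present, the prolyl hydroxylases of the EGLN family mark the alpha subunits for degradation through VHL, so HIF activity is set mainly at the protein level and transcript levels of its subunits do not measure it. HIF binds a short core sequence, most often ACGTG, and raises transcription of many glycolytic genes, of the glucose transporter gene Slc2a1, of Pdk1 and of its own inhibitor gene Egln3.

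The 250 bases before the transcription start of 4 genes that changed are shown because each carries ACGTG or GCGTG, whereas their transcripts moved in opposite directions. The Pdk1 window shown holds GCGTG only. A second RefSeq window of Pdk1 held no match and is not shown. The sequences are those of RefSeq on build GRCm38.p6, written 5′ to 3′ along the gene's strand, with matches in capitals. The letters searched were ACGTG on the gene's strand, with CACGT as its match on the other strand, and likewise GCGTG, with CACGC for the other strand. Slc2a1 lies at chr4:119108495-119108744 on the plus strand, Slc16a3 at chr11:120948817-120949066 on the plus strand, Egln3 at chr12:54203875-54204124 on the minus strand and Pdk1 at chr2:71872974-71873223 on the plus strand.
Slc2a1: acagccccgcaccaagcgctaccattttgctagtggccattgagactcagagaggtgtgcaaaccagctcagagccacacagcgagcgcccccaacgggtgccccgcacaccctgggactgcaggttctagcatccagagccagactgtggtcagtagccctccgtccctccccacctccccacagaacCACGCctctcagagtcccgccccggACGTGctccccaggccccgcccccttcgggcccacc
Slc16a3: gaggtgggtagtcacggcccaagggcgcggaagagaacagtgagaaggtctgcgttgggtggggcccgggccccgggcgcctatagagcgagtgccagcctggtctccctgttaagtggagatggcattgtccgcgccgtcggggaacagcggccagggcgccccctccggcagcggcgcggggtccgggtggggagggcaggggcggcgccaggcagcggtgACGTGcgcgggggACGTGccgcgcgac
Egln3: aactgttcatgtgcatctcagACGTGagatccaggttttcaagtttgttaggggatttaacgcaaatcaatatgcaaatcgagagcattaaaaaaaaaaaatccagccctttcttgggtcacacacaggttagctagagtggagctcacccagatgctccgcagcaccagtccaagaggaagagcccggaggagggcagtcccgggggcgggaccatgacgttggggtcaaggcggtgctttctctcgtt
Pdk1: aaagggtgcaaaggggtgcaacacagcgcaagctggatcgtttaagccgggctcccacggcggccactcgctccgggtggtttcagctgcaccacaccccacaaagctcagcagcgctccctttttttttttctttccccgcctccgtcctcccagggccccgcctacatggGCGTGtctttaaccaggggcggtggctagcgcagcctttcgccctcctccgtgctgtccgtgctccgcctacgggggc
Slc2a1 and Slc16a3, whose transcripts rose, each held 2 matches, and the windows shown of Egln3 and Pdk1, whose transcripts fell, held 1 each. Of the other called genes with a window, both higher, Pgam1 held 3 and Ldhb 1. RefSeq windows were found for 37 of the 40 genes, not for Slc2a3, Epas1 and Bhlhe40, and 44 of their 57 windows (77.2%) held at least 1 match. The share was 38.6% of 32851 windows of all genes and 53.7% of 13223 windows of genes tested here. These windows were not matched for base composition, a palindromic CACGTG counts as a match on both strands, and a match describes letters and not binding.

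Across all 39 tested genes 5 rose and 2 fell in the libraries labelled aging (edgeR's quasi-likelihood test, Benjamini-Hochberg adjusted p under 0.05 over all genes). The 7 genes are 17.9% of those tested, beside 12.8% of all genes. The 5 that rose were Pgam1, Ldhb, Slc2a1, Slc2a3 and Slc16a3, beside a background of 7.22% of all genes called higher, and the 2 that fell were Pdk1 and Egln3, beside 5.59% called lower. Of all genes 946 were called higher and 732 lower, a split that became 823 and 969 with upper-quartile scaling. The groups did not overlap for 15 of the 39 genes (38.5%), beside 38.0% of all genes, so by this measure the set stood at the background. Leaving out control replicate 2 left 2 of the 7 calls and leaving out control replicate 3 left 3, and all genes dropped to 268 and 458 calls. Egln3 was the only one of the 7 that passed in all 14 alternative settings, with an adjusted p of at most 0.0406.

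**Figure D1:**
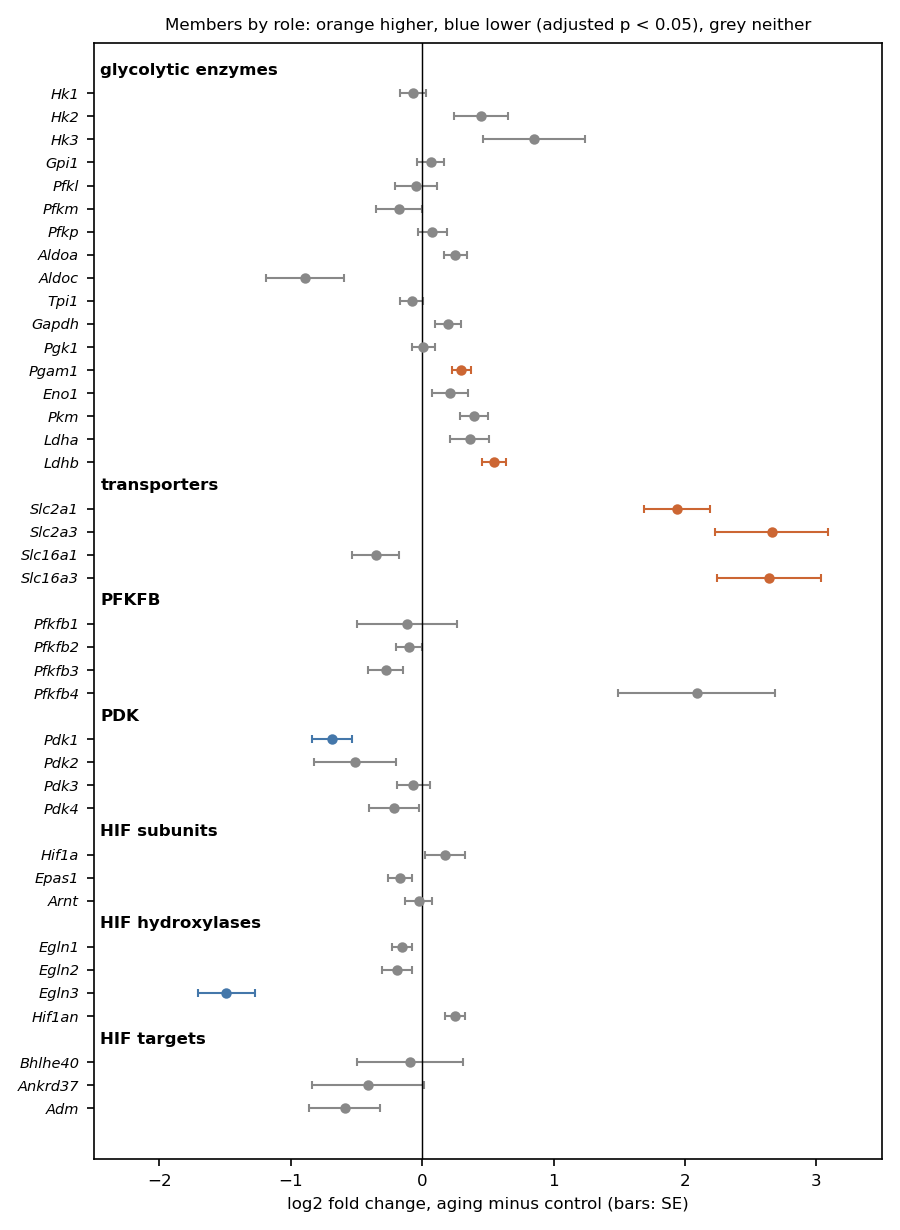
Log2 fold change of the 39 tested genes by role, libraries labelled aging minus libraries labelled control, with the standard error as bars. The 3 transporter genes Slc2a1, Slc2a3 and Slc16a3 lie at 1.94 to 2.66, most glycolytic enzymes lie within 0.5 of 0, and Egln3 lies at -1.49.

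The cell type label was checked against 16 markers of sinusoidal and general endothelium. They summed to 38160 to 46600 CPM (counts scaled to library size) in the control libraries and 38340 to 42720 CPM in those labelled aging. None of the 16 was called, and their median log2 fold change was -0.13. The groups did not overlap for 2 markers with a log2 fold change above 0, Clec4g (0.28) and Gpr182 (0.33), and for 3 below 0. Of all genes 19.2% were higher without overlap and 18.8% lower. Lyve1, among the 3 below 0, is named after its values had been seen. It stood at 551.0, 629.1 and 662.3 CPM in control replicates 1, 2 and 3. In aging replicates 2, 3 and 5 it stood at 243.9, 67.7 and 462.1 CPM (log2 fold change -1.25 ± 0.60, SE). Total counts per library were 15999220 to 17871220. Markers of neutrophils differed between the groups: 7 of 11 rose, all 11 were higher in mean, none was at 0 in any library, and their summed level was 238.5 to 530.0 CPM in the control libraries and 1629 to 4664 CPM in those labelled aging. Macrophage markers summed to 1580 to 2422 and 1210 to 2931 CPM with none of 11 called, hepatocyte markers to 975.0 to 1171 and 984.4 to 1106 CPM with 2 of 12 lower, and stellate cell markers to 62.8 to 83.4 and 31.0 to 36.6 CPM with 4 of 8 lower. Erythroid markers summed to 102.0 to 213.2 and 56.4 to 142.4 CPM and lymphoid markers to 31.9 to 90.6 and 22.8 to 55.0 CPM, with no calls among 6 and 10 tested. The lymphoid sum holds log2 fold changes from -1.52 for Klrb1c to 1.39 for Cd3e, with 5 of the 10 above 0. Beside these counts, 7.22% of all genes were called higher and 5.59% lower. In bulk libraries a change in the number of cells of a type and a change in RNA per cell cannot be told apart.

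Slc2a3 and Slc16a3 had the largest log2 fold changes of the 39 genes, and Slc2a1 the next largest among the 7 that passed. Slc2a1, which encodes the widespread glucose transporter GLUT1, stood at 23.8, 19.7 and 18.3 CPM in control replicates 1, 2 and 3 and at 110.6, 61.6 and 65.5 CPM in aging replicates 2, 3 and 5; an antisense gene, not used here, overlaps it. Every library labelled aging was above every control library. The rise was 3.84-fold, a log2 fold change of 1.94 ± 0.25 (SE; edgeR adjusted p = 0.00899). Slc2a3, which encodes the high-affinity transporter GLUT3, stood at 43.3, 36.6 and 20.9 CPM against 328.0, 187.8 and 121.9 CPM. Aging replicate 2 was highest and control replicate 3 lowest, without overlap, and the gene rose 6.33-fold, a log2 fold change of 2.66 ± 0.43 (SE; edgeR adjusted p = 0.0146). Slc16a3, which encodes the lactate exporter MCT4 of glycolytic cells, had 39.7, 31.3 and 17.9 CPM against 268.0, 169.0 and 118.3 CPM. Its libraries ranked in the same order as those of Slc2a3, and it rose 6.24-fold, a log2 fold change of 2.64 ± 0.39 (SE; edgeR adjusted p = 0.0123). Slc16a1, which encodes the related carrier MCT1, was lower in every library labelled aging, 9.92 to 15.4 against 16.2 to 18.3 CPM, but did not pass (log2 fold change -0.35 ± 0.18, SE; edgeR adjusted p = 0.218). Without control replicate 2 none of Slc2a1, Slc2a3 and Slc16a3 passed, and Slc2a3 also missed the threshold without control replicate 3. Their highest adjusted p over the settings were 0.0523, 0.0660 and 0.0596.

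**Figure D2:**
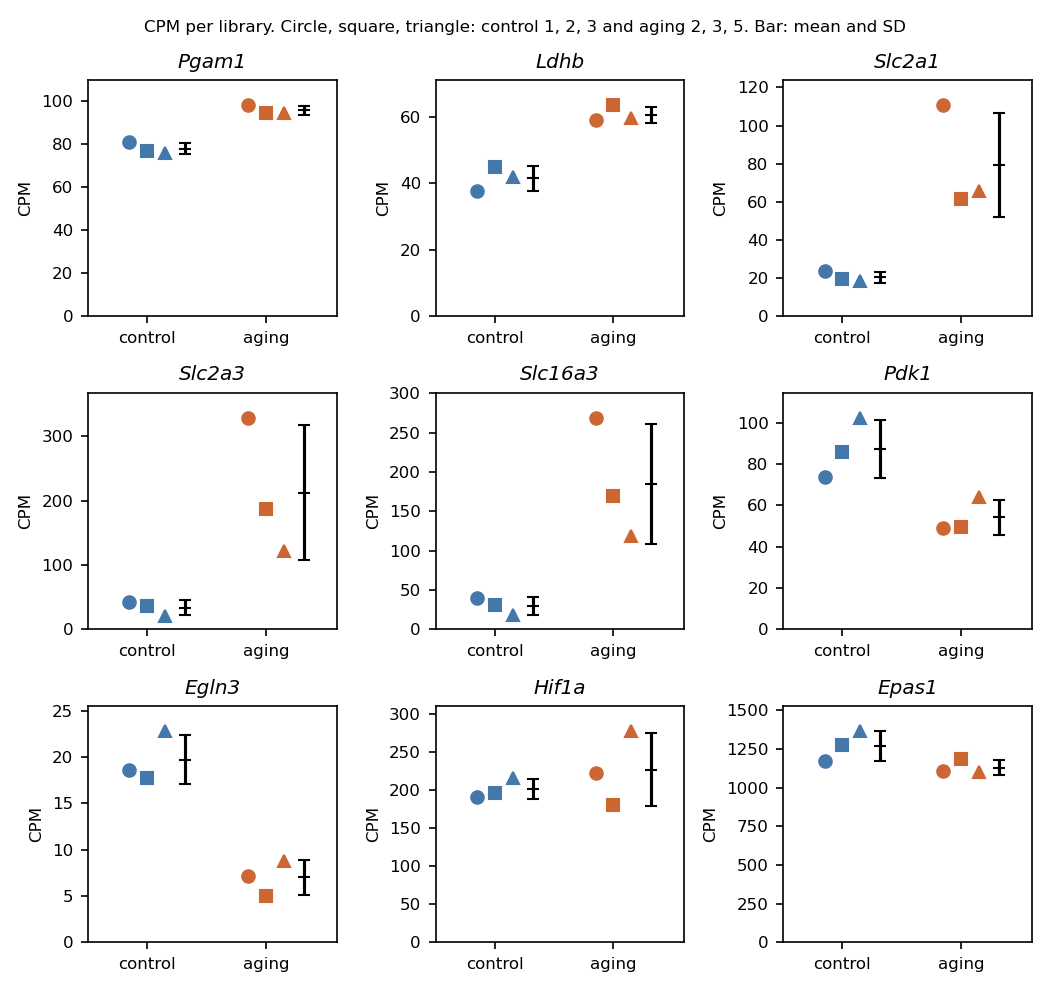
CPM in each library for the 7 called genes and for Hif1a and Epas1. Symbols mark replicates, and the bar beside each group is the mean with its SD over 3 libraries. The groups are apart in all 7 called genes and overlap for Hif1a and Epas1.

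The transporter levels were set beside the summed neutrophil markers of the same library. For each 100 CPM of neutrophil markers, Slc2a3 stood at 7.09 to 8.76 CPM in the control libraries and at 7.03 to 9.40 CPM in those labelled aging. Slc16a3 stood at 6.07 to 7.5 and 5.75 to 8.46 CPM on the same scale. These ranges overlap, although the marker sum itself differed several-fold. Slc2a1 stood at 3.82 to 7.68 and 2.37 to 4.02 CPM, and Hk3, the hexokinase of myeloid cells, at 3.42 to 8.58 and 1.38 to 1.5 CPM. Hk3 did not overlap, nor did Ldhb at 7.08 to 17.6 against 1.27 to 3.65 CPM. Because the marker sum was higher in every library labelled aging, a gene with little change of its own is lower on this scale, as Hk1 was at 22.9 to 58.7 against 2.39 to 8.21 CPM. How much of each transcript came from neutrophils was not tested. This comparison was chosen after the values had been seen.

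**Figure D3:**
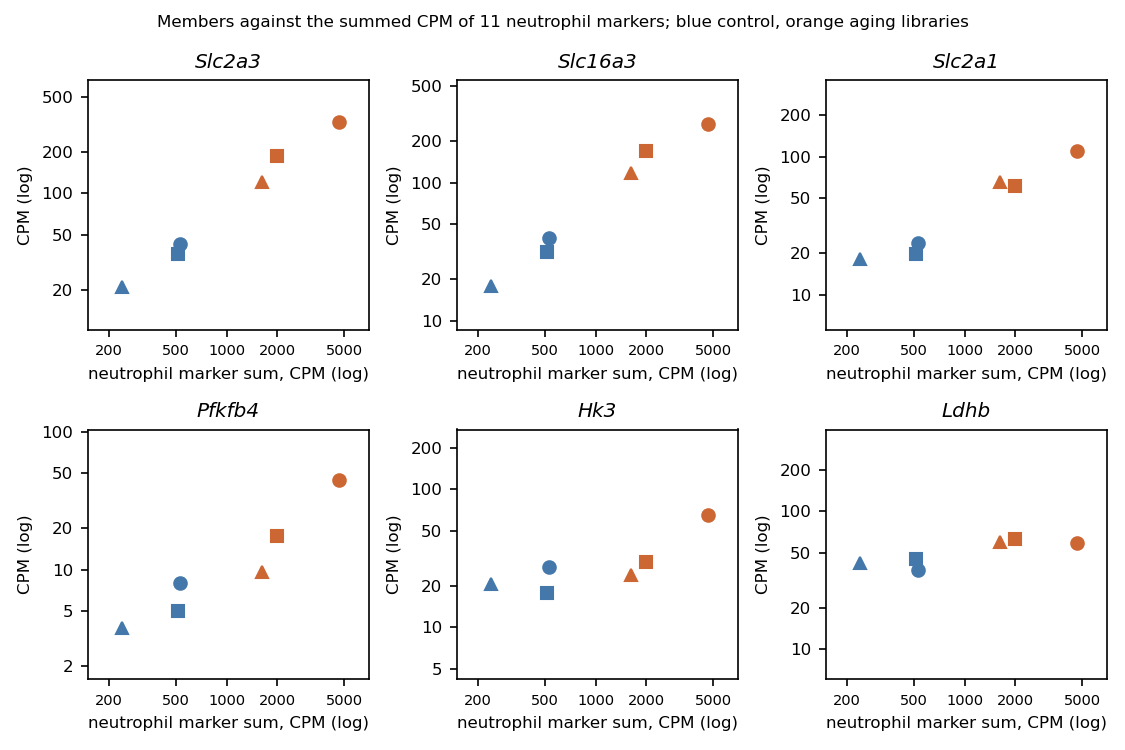
CPM of 6 genes against the summed CPM of the 11 neutrophil markers in each library, both on log axes, with control libraries in blue and libraries labelled aging in orange. Circles, squares and triangles are control replicates 1, 2 and 3 and aging replicates 2, 3 and 5. Slc2a3, Slc16a3 and Pfkfb4 climb with the marker sum over the 6 libraries, and Ldhb spans only 37.5 to 63.4 CPM.

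Among the glycolytic enzymes and lactate dehydrogenases 2 of 17 tested genes rose, none fell and 15 did not pass. Of all genes 7.22% were called higher and 5.59% lower. The median log2 fold change of the 17 was 0.20 beside -0.0065 over all genes, and 12 of the 17 were above 0 beside 6450 of 13096. Pgam1, the phosphoglycerate mutase, stood at 80.8, 76.7 and 75.9 CPM in control replicates 1, 2 and 3 and at 97.9, 94.5 and 94.5 CPM in aging replicates 2, 3 and 5. The difference was small and without overlap, 1.23-fold or 0.30 ± 0.07 on the log2 scale (SE; edgeR adjusted p = 0.0362), and it missed the threshold in 10 of 14 alternative settings. Ldhb, the heart-type lactate dehydrogenase subunit, stood at 37.5, 44.8 and 42.0 against 59.0, 63.4 and 59.4 CPM. It rose 1.46-fold, or 0.55 ± 0.09 on the log2 scale (SE; edgeR adjusted p = 0.0126), and was lost only without control replicate 3 (edgeR adjusted p = 0.0534).

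The other 15 enzyme genes did not pass, among them some with larger differences than Pgam1. Pkm, the pyruvate kinase gene, stood at 447.4, 444.9 and 453.5 against 656.3, 511.8 and 597.6 CPM. It lay just outside the threshold (log2 fold change 0.39 ± 0.11, SE; edgeR adjusted p = 0.0514) and passed with DESeq2 and without aging replicate 3. Aldoa, the main aldolase, was also higher in every library labelled aging and did not pass, at 0.25 ± 0.09 on the log2 scale (SE; edgeR adjusted p = 0.0990). Gapdh, the dehydrogenase of the middle of the pathway, stood at 500.8, 469.1 and 469.3 against 604.3, 501.1 and 543.8 CPM. Its groups were barely apart in CPM and overlapped in FPKM, and it did not pass (0.20 ± 0.10 on the log2 scale, SE; edgeR adjusted p = 0.210). Ldha, the muscle-type lactate dehydrogenase and a known HIF target, ranged over 200.1 to 236.9 against 227.7 to 335.0 CPM with its highest value in aging replicate 5, and did not pass (log2 fold change 0.36 ± 0.15, SE). Eno1, Gpi1, Tpi1 and Pgk1, which carry other steps of the pathway, had log2 fold changes of 0.21, 0.06, -0.08 and 0.01. The phosphofructokinases Pfkl, Pfkm and Pfkp, which hold the committed step, had -0.05, -0.18 and 0.08, and none of these 7 passed. Aldoc, the brain aldolase, was scarce at 1.95 to 2.68 against 0.978 to 1.54 CPM and did not pass (log2 fold change -0.89 ± 0.30, SE; edgeR adjusted p = 0.0868). The values of Gapdh, Pgk1, Eno1, Ldha, Aldoa and other genes with near-identical processed copies in the mouse genome depend on how shared reads were assigned, which is not given in the sources used here.

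On the authors' FPKM, which divide by gene length, Gapdh was the most abundant enzyme at 354.7 ± 27.3 in the control libraries (SD, n = 3). Pkm, Aldoa and Ldha followed at 195.2 ± 5.79, 162.0 ± 9.10 and 138.5 ± 11.2 FPKM, then Gpi1 at 104.1 ± 10.1 and Eno1 at 83.0 ± 8.97 FPKM. Tpi1 and Pgam1 did not differ beyond their spread, at 43.0 ± 2.88 and 44.4 ± 2.85 FPKM, nor did Hk1 and Ldhb at 34.9 ± 1.91 and 33.1 ± 1.69 FPKM. The phosphofructokinases were lower, with Pfkl at 24.1 ± 6.46, Pfkp at 15.7 ± 2.34 and Pfkm at 6.42 ± 0.934 FPKM. Hk1, the constitutive hexokinase that binds mitochondria, made up 80.0% ± 4.37 of the summed FPKM of the hexokinases Hk1, Hk2 and Hk3 in the control libraries and 69.0% ± 12.7 in those labelled aging (SD, n = 3 per group). The Hk1 share was 54.7%, 73.5% and 78.8% in aging replicates 2, 3 and 5, against 75.0% to 82.9% in the control libraries. It was lowest in aging replicate 2, where Hk3 stood at 64.5 CPM beside 17.7 to 29.9 CPM in the other 5 libraries. Neither Hk3, whose exons overlap those of Unc5a on the other strand, nor Hk2, the inducible hexokinase, passed (0.85 ± 0.39 and 0.45 ± 0.20 on the log2 scale, SE).

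**Figure D4:**
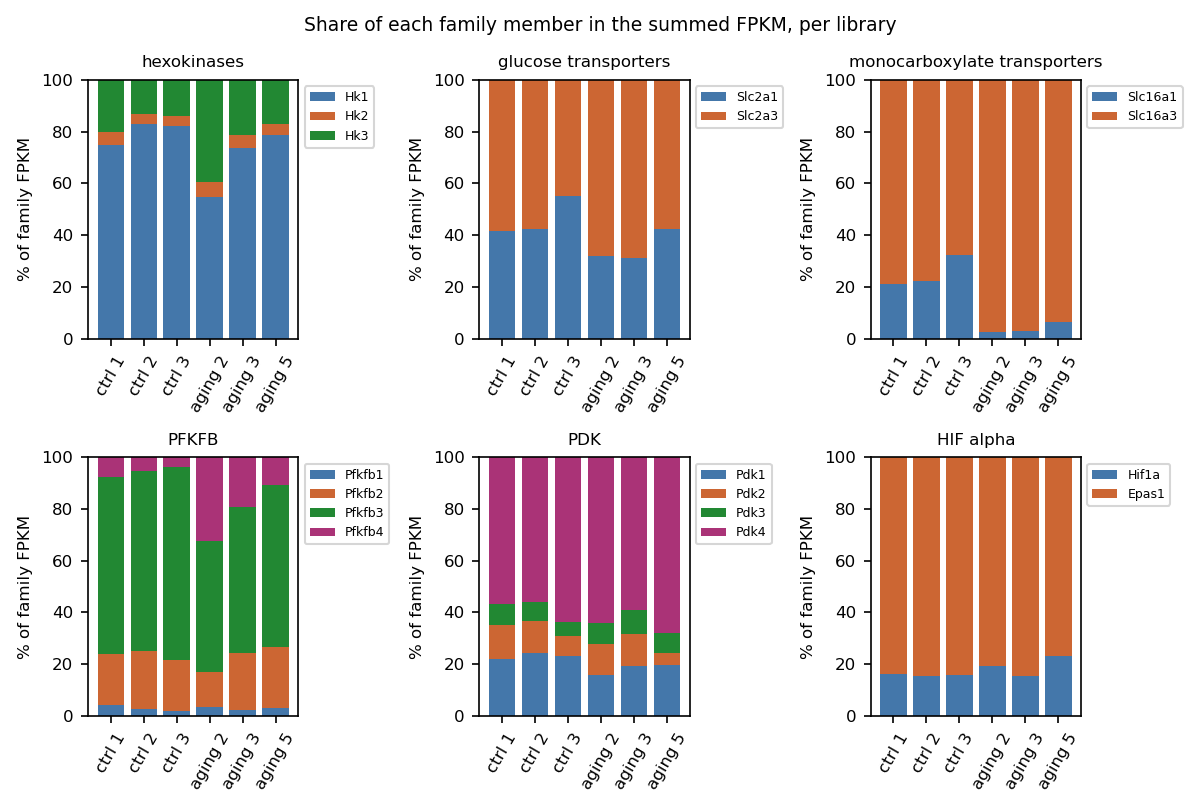
Share of each gene in the summed FPKM of its family, as a percent, per library (ctrl, control). Slc16a3 makes up most of the monocarboxylate carrier pair in all 6 libraries and more in those labelled aging. Epas1 makes up 80.7% to 84.1% of the HIF alpha pair in the group means.

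The PFKFB enzymes make and remove fructose 2,6-bisphosphate, the strongest activator of phosphofructokinase, and none of the 4 passed. Pfkfb3, the isoform with high kinase activity that endothelial cells depend on, was the most abundant at 21.1 ± 1.97 against 16.9 ± 3.04 FPKM (SD, n = 3 per group). Its CPM were 89.4, 88.2 and 104.7 in control replicates 1, 2 and 3 and 92.2, 66.9 and 73.9 in aging replicates 2, 3 and 5. The groups overlapped, with a log2 fold change of -0.28 ± 0.13 (SE; edgeR adjusted p = 0.203). Pfkfb4, an isoform induced by hypoxia, stood at 7.99, 5.0 and 3.78 against 44.3, 17.5 and 9.60 CPM. Aging replicate 2 was far above the rest, and the gene missed the threshold (log2 fold change 2.09 ± 0.59, SE; edgeR adjusted p = 0.0651), while it passed with DESeq2, with the replicate number as a block and without aging replicate 5. Without aging replicate 2 its log2 fold change was 1.28, and its adjusted p ranged up to 0.185 over the settings. Its libraries ranked in the same order as the summed neutrophil markers. For each 100 CPM of these markers Pfkfb4 stood at 0.971 to 1.58 CPM in control libraries and 0.589 to 0.950 CPM in those labelled aging. On the log2 scale Pfkfb2, the heart isoform, stood at -0.10 ± 0.10 and Pfkfb1, the liver isoform, at -0.12 ± 0.38 (SE).

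The pyruvate dehydrogenase kinases inhibit pyruvate dehydrogenase in the mitochondrial matrix and so the conversion of pyruvate to acetyl-CoA. All 4 had log2 fold changes below 0, and 1 was called lower. Over all genes 5.59% were called lower, and 6450 of 13096 had log2 fold changes above 0. Pdk1, the HIF-responsive kinase, fell from 73.8, 85.9 and 102.2 CPM in control replicates 1, 2 and 3 to 49.1, 49.7 and 64.1 CPM in aging replicates 2, 3 and 5. The groups did not overlap, and the fall was 1.61-fold, or -0.68 ± 0.15 on the log2 scale (SE; edgeR adjusted p = 0.0289). Leaving out any one of control replicates 2 and 3 and aging replicates 2 and 3 ended the call, with an edgeR adjusted p of up to 0.0987. Pdk4, the isoform induced by fasting, was the most abundant of the family at 43.3 ± 8.68 against 36.4 ± 6.07 FPKM (SD, n = 3 per group) and did not pass (log2 fold change -0.21 ± 0.19, SE). Pdk2 and Pdk3, further isoforms, stood at -0.51 ± 0.31 and -0.07 ± 0.12 on the log2 scale (SE), and Pdk2 was lowest, at 6.57 CPM, in aging replicate 5.

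None of the 3 HIF subunit genes passed. Epas1, which encodes HIF-2 alpha, the form enriched in endothelium, was the most abundant by far at 233.2 ± 11.7 against 202.1 ± 11.7 FPKM (SD, n = 3 per group). Its CPM were 1171, 1278 and 1365 in the control libraries and 1107, 1184 and 1099 in those labelled aging, which overlap (log2 fold change -0.17 ± 0.09, SE; edgeR adjusted p = 0.255). Hif1a, which encodes HIF-1 alpha, stood at 191.5, 196.8 and 215.7 against 222.7, 181.0 and 277.1 CPM. Aging replicate 3 was the lowest and aging replicate 5 the highest of all 6 libraries (log2 fold change 0.17 ± 0.15, SE; edgeR adjusted p = 0.474). Arnt, the common partner, had 104.6 to 117.9 against 97.7 to 123.3 CPM and a log2 fold change of -0.03 ± 0.10 (SE).

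The hydroxylases that restrain HIF differed among themselves. Egln3, the prolyl hydroxylase PHD3, stood at 18.7, 17.8 and 22.8 CPM in control replicates 1, 2 and 3 and at 7.19, 5.02 and 8.84 CPM in aging replicates 2, 3 and 5. All 3 libraries labelled aging were below all control libraries, and the fall was 2.81-fold, or -1.49 ± 0.21 on the log2 scale (SE; edgeR adjusted p = 0.00897). Its share of the summed FPKM of the EGLN genes was 15.8% ± 1.32 in the control libraries and 7.05% ± 2.0 in those labelled aging (SD, n = 3 per group). Egln1, the main oxygen sensor PHD2, was slightly lower in every library labelled aging at 72.3 to 75.8 against 79.4 to 86.1 CPM and did not pass (log2 fold change -0.15 ± 0.07, SE). Egln2, or PHD1, also did not pass, at -0.19 ± 0.11 on the log2 scale (SE). Hif1an, the asparagine hydroxylase FIH, stood at 33.3, 32 and 33.9 against 39.2, 38.5 and 40 CPM without overlap, a log2 fold change of 0.25 ± 0.08 that missed the threshold (SE; edgeR adjusted p = 0.0733).

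The 3 HIF target genes of the set did not pass, and their median log2 fold change was -0.41. Adm, which encodes the vasodilator adrenomedullin, stood at 28.6, 30.7 and 50.0 against 31.0, 18.7 and 22.8 CPM, a log2 fold change of -0.59 ± 0.27 (SE; edgeR adjusted p = 0.193). Bhlhe40, a transcriptional repressor also tied to the circadian clock, was even across the control libraries at 208.5, 197.5 and 218.4 CPM. In aging replicates 2, 3 and 5 it stood at 103.1, 147.1 and 335.8 CPM, on both sides of the control range. Its log2 fold change of -0.09 ± 0.41 (SE) became 0.22 without aging replicate 2, and without aging replicate 5 it was called lower, at -0.73. Ankrd37, an ankyrin-repeat gene induced by hypoxia, was scarce at 2.38, 2.42 and 4.53 against 1.61, 1.65 and 3.72 CPM, with overlap (log2 fold change -0.41 ± 0.42, SE; edgeR adjusted p = 0.546).

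A wider list of 33 tested HIF target genes had 4 called higher and 3 lower, with a median log2 fold change of -0.00015. Calls in both directions were also found over all genes, 7.22% higher and 5.59% lower. The 4 targets with the smallest p-values were Ddit4, Hmox1, Stc1 and Loxl2. Ddit4, an mTORC1 inhibitor, stood at 162.9 to 181.2 against 41.6 to 56.1 CPM (log2 fold change -1.87 ± 0.13, SE), and Loxl2, a collagen cross-linking oxidase, at 134.7 to 150.3 against 43.4 to 76.3 CPM (-1.33 ± 0.21). Stc1, a secreted glycoprotein, stood at 11.02 to 16.1 against 0.0576 to 1.05 CPM (-4.35 ± 0.56, a value that rests on few counts in the libraries labelled aging), and Hmox1, the heme oxygenase, at 92.6 to 121.8 against 194.3 to 228.7 CPM (0.94 ± 0.12). The other 3 calls, named after their values had been seen, were P4ha1, Plin2 and Jmjd6, all higher. P4ha1, a collagen prolyl hydroxylase subunit, rose 2.24-fold from 107.5 ± 19.4 to 240.6 ± 55.1 CPM (SD, n = 3 per group; edgeR adjusted p = 0.0153). Vegfa, the best known HIF target of vessels, stood at 44.1 to 56.6 against 40.8 to 43.6 CPM and did not pass (log2 fold change -0.27 ± 0.11, SE). Loxl2 was lost in 2 of 14 alternative settings, and Ddit4, Hmox1 and Stc1 in none.

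HIF target levels also differed between libraries of a group. Over the 36 tested targets of both lists, each of control replicate 3 and aging replicate 5 was the highest of its group for 19 genes (52.8%). Over all genes control replicate 3 was the highest of its group for 33.5% and aging replicate 5 for 37.5%. Over the 39 genes of the set the shares were 51.3% and 41.0%, so for control replicate 3 the share among the targets was close to that in the whole set. In aging replicate 5 Ndrg1, a stress-response gene, stood at 680.4 CPM beside 362.5 and 381.4 CPM in the other libraries of its group, and Bnip3, a mitophagy receptor, at 64.4 beside 34.7 and 37.6 CPM. Bnip3 was also highest in control replicate 3, at 68.4 beside 43.3 and 46.4 CPM. These genes were picked after their values had been seen, and what sets the libraries apart was not tested.

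**Figure D5:**
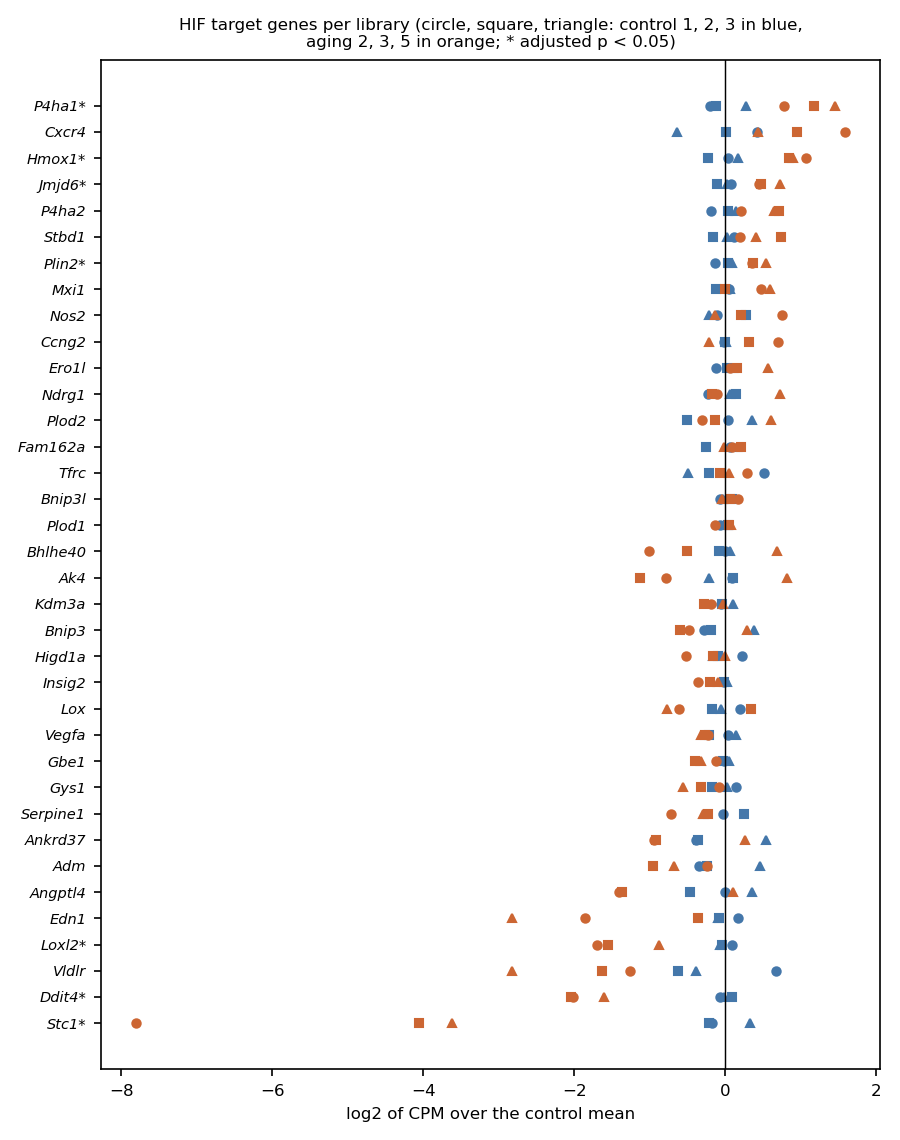
Log2 of CPM over the control mean for 36 HIF target genes in each library, ordered by log2 fold change. An asterisk marks an edgeR adjusted p under 0.05. Of the called genes Stc1, Ddit4 and Loxl2 lie to the left and P4ha1, Hmox1, Jmjd6 and Plin2 to the right, while Bhlhe40 and Ak4 have libraries labelled aging on both sides of 0.

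Genes of neighbouring pathways were read from the same fit. Of 22 other tested genes of glucose handling 3 rose and 5 fell, so 8 of 22 were called beside 12.8% of all genes. Pck1 and Fbp1, gluconeogenic enzymes of hepatocytes, fell by 1.95 and 1.02 on the log2 scale, and Pck1 went from 27.6 to 36.5 CPM in the control libraries to 7.38 to 10.6 CPM. Tigar, a phosphatase that lowers fructose 2,6-bisphosphate, stood at 4.17 to 4.78 against 7.19 to 8.03 CPM and rose 1.67-fold. Further calls, named after their values had been seen, were Pklr and Slc2a9 lower and Galm and Slc2a6 higher, with Slc2a6, a glucose transporter known from leukocytes, at 2.14 to 5.42 against 11.6 to 33.7 CPM. Of 8 pentose phosphate genes Taldo1, the transaldolase, rose 1.65-fold and the other 7 did not pass, and of 10 genes of pyruvate import and its conversion to acetyl-CoA Pdha1, the catalytic subunit of pyruvate dehydrogenase, fell by 0.33 on the log2 scale. Among 11 tested HIF regulators, Vhl included, Arnt2, a paralog of Arnt, rose from 0.225 to 0.630 CPM to 1.27 to 2.21 CPM. Taldo1 was lost in 8 of 14 alternative settings, Pdha1 and Tigar in 6 each, and Fbp1 and Arnt2 in 4 each.

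Ratios of related genes within a library do not depend on how libraries are scaled. Of 9 ratios of FPKM, 4 had groups that did not overlap, beside 38.0% of all single genes in CPM. No share over other ratios was taken. For these 4 ratios the exact two-sided permutation p was 0.1, the smallest that 3 against 3 libraries can give (0.225 after adjustment over the 9). Slc16a3 over Slc16a1 had a log2 ratio of 1.59 ± 0.46 in control libraries and 4.68 ± 0.72 in those labelled aging, and Pfkfb4 over Pfkfb3 one of -3.74 ± 0.60 and -1.58 ± 0.95 (SD, n = 3 per group). Pdk4 over Pdk1 stood at 1.34 ± 0.12 and 1.81 ± 0.20, and Aldoc over Aldoa at -7.14 ± 0.19 and -8.14 ± 0.40 on the log2 scale (SD). Epas1 over Hif1a, at 2.40 ± 0.04 and 2.08 ± 0.36, overlapped, as did Ldhb over Ldha, Slc2a3 over Slc2a1, Hk2 over Hk1 and Pfkp over Pfkl.

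Medians of the classes are given as a description, since no test compared them and most rest on 3 or 4 genes. Pfkfb4 at 2.09, Slc16a1 at -0.35, Hif1a at 0.17 and Hif1an at 0.25 were opposite in sign to the median of their class. Of the 17 enzymes 12 were above 0, as their median was, and the rest below. The median log2 fold change was 2.29 for the 4 transporters, 0.20 for the 17 enzymes, -0.11 for the PFKFB genes, -0.36 for the PDK genes, -0.03 for the HIF subunits, -0.17 for the hydroxylases and -0.41 for the 3 HIF targets. The median absolute log2 fold change was 0.25 over all 39 genes and 0.23 over all 13096. An FDR under 0.05 is given for 8 of the 39 genes in the authors' deposited table, beside 23.5% of all genes. These 8 hold 5 of the 7 genes called here, not Pgam1 and Ldhb, together with Pkm, Pfkfb4 and Pfkfb3. The sign of the fold change in the authors' deposited table is the same for 35 of the 39.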

How the data were processed

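The authors deposited a table with whole-number read counts and FPKM (read fragments divided by gene length and by library size) per gene for each of the 6 libraries, per the file headers. Their group means, a score of the authors that is not used here, their log2 fold change, p-value and FDR are in the same deposited table, and fold changes and FDR are printed only where that table is named. Per the submitters' processing notes the tools named, with no role or order, were RSEM, StringTie 1.3.1, HISAT2, Bowtie2 and fastp 0.18.0. Genome build, annotation, strand setting and the handling of shared reads were not given in the sources used here. Without strand, overlapping genes on opposite strands share reads: in GENCODE M21 exons of Slc2a1, Hk1, Hk3, Gapdh, Hif1a, Bhlhe40 and Ankrd37, among others, overlap such a gene.

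Counts were tested with edgeR 4.0.16 (R 4.3.3; filterByExpr with minimum count 10 and total 15, TMM factors 0.963 to 1.05, robust quasi-likelihood fit with group as the only term, Benjamini-Hochberg threshold 0.05). Standard errors were derived from the F statistic of each gene. CPM use the TMM-scaled library sizes. DESeq2 1.42.0 and limma 3.58.1 served as alternatives, and the edgeR step was checked on simulated counts. No pair of libraries in a group was a duplicate (8.07 to 51.9 for chi-square over its degrees of freedom). Ratios of FPKM used exact permutation tests. Genes named from the other lists are the up to 4 smallest p-values among those that passed, except 1 gene that is counted but not reported here. For each class of the 40 genes, every called gene, or else those with the smallest p-values, and the most abundant are given per library. The exceptions are Pdk4, given as group means, and Egln1, given as ranges. The members, lists and comparisons were chosen with earlier results of these data known.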

Additional observations from a re-analysis of the deposited data

How the results depend on the processing

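Of the 14 alternative settings none gave the opposite sign for any of the 7 called genes. Leaving out 1 library at a time gave 268 to 2121 changed genes and 2 to 9 changed members. Genes that did not pass changed sign in log2 fold change as follows, and the cause was not tested. Pgk1 went to -0.0377 with upper-quartile scaling, -0.0311 with total-count scaling, -0.0307 on log2(FPKM + 1) and -0.0311 on log2(FPKM + 0.1). Pfkfb1 went to 0.0459 and 0.0851 on those FPKM scales. With 1 library left out the lowest and highest values were -0.116 to 0.059 for Arnt, -0.734 to 0.216 for Bhlhe40, -0.0218 to 0.14 for Gpi1, -0.126 to 0.00309 for Hk1, -0.384 to 0.183 for Pfkfb1, -0.174 to 0.119 for Pfkl and -0.0281 to 0.0786 for Pgk1.

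Replicate numbers 2 and 3 occur in both groups, but the labels do not say that they pair libraries, and deviations of same-numbered libraries correlated at -0.06 and -0.04. With the number as a replicate block, which leaves 1 residual degree of freedom, 1698 genes and 8 members were called. Pgam1 was lost, Pfkfb4 and Bhlhe40 (-0.75) were gained, and Hif1a stood at -0.0371, Pfkfb1 at 0.33, Pfkm at 0.0882 and Pgk1 at -0.0027. Genes under about 3 CPM, such as Aldoc and Pfkfb1, rest on few counts, which limits what differences could be seen.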
